A study of Mus musculus with 9 samples.

Results

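The cytosolic ribosomal protein genes were 82 of the 22173 genes in the count tables. They were chosen by name: symbols of the form Rpl or Rps plus a number, together with Rplp0, Rplp1, Rplp2 and Rpsa, without the Rps6k kinases and without rows named as pseudogenes. The names matched 85 genes, and those with at least 90 counts summed over the 9 libraries were kept. Just below that minimum were Rpl32l with 38 counts, Rpl39l with 29 and Rpl10l with 0, and just above it were Rps29 with 266, Rpl3l with 288 and Rpl36a with 476. The kept genes were 31 of the small subunit, 46 of the large subunit and 5 paralogs (Rpl3l, Rpl6l, Rpl7l1, Rpl22l1 and Rps27l), and all 82 passed the filter on low counts that left 12094 genes for testing.

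The libraries were made from wild-type mouse bone marrow-derived neutrophils embedded in GelMA hydrogel, a crosslinked gelatin that holds cells in 3 dimensions, and cultured there for 2 days (RPMI medium, 10% serum from fetal calves). The gels had an elastic modulus of 1.5 kPa (low, the control), 2.6 kPa (middle) or 5.7 kPa (high), with 3 libraries per gel numbered 1 to 3. The labels do not say whether the replicates came from separate mice or cultures, nor what libraries of the same number share. A p-value here therefore measures only the spread between these libraries. In fits with the number as a factor, it measures only the spread left after gel and number are removed. Purity after isolation, mouse sex and mouse age were not given in the sources used here.

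Library totals were 13172879 to 19486546 counts. The 3 libraries numbered 1 stood apart from the other 6, and this split runs through every result below. Of 12 neutrophil marker genes, 0 were at 0 counts in all libraries. The same held for the markers of each other cell type read below, so this check does not tell cell types apart. The neutrophil markers summed to 3602 to 5006 CPM (counts scaled to a common library total) in the number 1 libraries and 16864 to 24854 CPM in the others. All 12 were lower in each number 1 library than in every other library. The 12 macrophage markers summed to 14413 to 17434 CPM in number 1 and 16113 to 19294 CPM in the others. In bulk RNA, fewer cells of a type and less RNA per cell cannot be told apart.

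Ribosomal proteins pack around the ribosomal RNAs to form the small subunit, which decodes the mRNA, and the large subunit, which joins the amino acids. Cells need them in near-equal numbers, and their mRNAs share a 5′ terminal pyrimidine tract through which mTORC1 and Larp1 tie their translation to nutrients and growth signals. Neutrophils make most of their granule proteins in the marrow, and mature cells carry fewer ribosomes than their dividing precursors.

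The start of the transcript carries that tract, and the RefSeq promoter table (GRCm38.p6) held a window for 61 of the 82 members. The 8 windows below were taken from the members with a window, leaving out members on 1 chromosome. They are those of the 4 largest and the 4 lowest differences between replicate number 1 and the other libraries in that set. Each runs from 10 bases before to 20 bases from the annotated start, and capitals mark the longest run of 5 or more pyrimidines that begins with C within 10 bases of the start.
Rps10, chr17:27635225-27635254, minus strand: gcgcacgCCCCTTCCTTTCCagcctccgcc
Rpl12, chr2:32961702-32961731, plus strand: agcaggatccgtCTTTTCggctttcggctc
Rpl13, chr8:123102340-123102369, plus strand: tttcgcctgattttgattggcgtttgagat
Rpl9, chr5:65391412-65391441, minus strand: gggccctgacggattacaagaacgtgatga
Rps26, chr10:128626487-128626516, minus strand: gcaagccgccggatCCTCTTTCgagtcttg
Rpsa, chr9:120127756-120127785, plus strand: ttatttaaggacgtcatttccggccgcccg
Rps6, chr4:86857348-86857377, minus strand: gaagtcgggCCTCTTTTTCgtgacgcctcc
Rpl35, chr2:39005112-39005141, minus strand: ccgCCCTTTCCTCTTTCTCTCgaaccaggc

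Such a run was found in 54.1% of the 61 member windows and in 30.6% of the 9737 windows of tested genes. The starts used in these cells were not measured, so a window without a run does not show that the mRNA lacks the tract. Windows with a run occurred at both ends of that order: Rps10 and Rpl12 had one among the 4 largest differences, and Rps26, Rps6 and Rpl35 had one among the 4 lowest. Other letters were searched on both strands of the 300-base windows, overlaps allowed. CCGGAAG, the core that ETS factors such as Gabpa bind, was in 39.3% of member windows and 18.9% of all. AANATGGC, the core bound by Yy1, was in 19.7% and 9.2%, TATAAA in 9.8% and 7.1%, and GGGCGG in 60.7% and 63.2%. These matches describe letters in a window and do not show binding.

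For 4 of the 5 paralogs, the coding sequence could be aligned to that of the standard partner, while Rpl6l had no principal transcript and was not aligned. The first 60 bases of 2 pairs are shown, from the GENCODE vM21 transcripts (GRCm38), because these paralogs and their standard partners are compared below, together with the whole coding sequence of Rpl41, which encodes one of the smallest known proteins.
Rps27: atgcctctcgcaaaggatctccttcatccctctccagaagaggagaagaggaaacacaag
Rps27l: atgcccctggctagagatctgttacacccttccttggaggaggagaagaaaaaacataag
Rpl22: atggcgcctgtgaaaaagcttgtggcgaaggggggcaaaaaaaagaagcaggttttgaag
Rpl22l1: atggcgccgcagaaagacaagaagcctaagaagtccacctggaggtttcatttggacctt
Rpl41: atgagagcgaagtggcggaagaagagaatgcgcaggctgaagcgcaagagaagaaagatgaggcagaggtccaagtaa
Over the aligned coding bases, Rps27 and Rps27l were 76.1% identical, Rpl3 and Rpl3l 74.4%, Rpl22 and Rpl22l1 71.2%, and Rpl7 and Rpl7l1 61.8%. No pair shared a stretch of 100 identical bases.

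Levels per length differed widely between members, although the proteins are needed in near-equal numbers. The 77 standard subunit genes ranged from 3.60 CPM per kilobase of exonic size for Rpl5, a 5S ribosomal RNA partner that also binds Mdm2, to 732 CPM per kilobase for Rps26, with a median of 99.9. That is a 204-fold range in which 10 genes lay under 10 and 38 at 100 or more. The deposited exonic size used as divisor can differ from the principal transcript, so the order of levels depends on it. It was 2343 against 474 bases for Rpl22 and 638 against 1242 for Rpl12. After Rps26, the highest were Rpl41 at 542 CPM per kilobase and Rplp1, part of the stalk that recruits elongation factors, at 497. Among all 82 members the lowest was Rpl3l, known as a striated muscle paralog of Rpl3, at 1.09 CPM per kilobase, followed by Rpl5 and by Rps29 at 4.89.

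Part of the transcript of most members is also found in other genes, mainly processed pseudogenes, and reads there may not be assigned to the member. The counting of reads with several positions was not given in the sources used here. In the 81 members with a principal GENCODE transcript, the share of 100-base windows that also occur in another gene's transcript had a Spearman rho of -0.37 and a Pearson r of -0.34 with the level per kilobase on the log2 scale. This is a description over 81 genes that share the same libraries. The median level was 214 CPM per kilobase in the 27 genes with under 30% shared windows, 132 in the 28 with 30 to 60%, and 39.4 in the 26 with 60% or more. Rpl5 shared 91.1% of its windows and Rps27, a zinc-finger protein of the small subunit, shared 98.4% with a level of 15.4 CPM per kilobase. The relation was loose: Rpl35 shared 83.0% and reached 410 CPM per kilobase, while Rps29 shared 24.7% and was the lowest small subunit gene. Levels of members with much shared sequence are therefore uncertain.

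**Figure D1:**
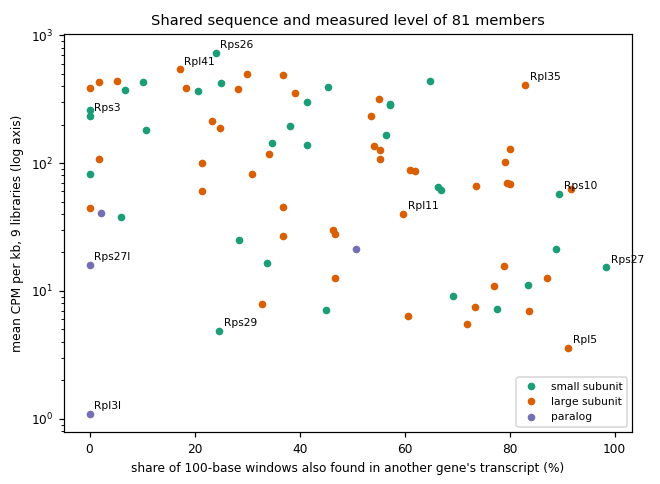
Mean level of 81 members over the 9 libraries (CPM per kilobase, log axis) against the share of their 100-base transcript windows that occur in another gene (percent). Each point is 1 gene, coloured by subunit, and the points spread widely at every share: Rpl35 is at 410 and Rpl5 at 3.60 CPM per kilobase, each with over 80% shared.

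The spread over the 9 libraries also differed between members. It was smallest for Rpl35 (SD of log2 CPM 0.103), Rps24 (0.107) and Rpl3 (0.132), which helps form the peptidyl transferase centre. Among the widest were Rps10 (0.901) and Rpl12 (0.855), a protein of the stalk base. In the plot of levels, the number 1 libraries lie to the right of the others in most rows.

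**Figure D2:**
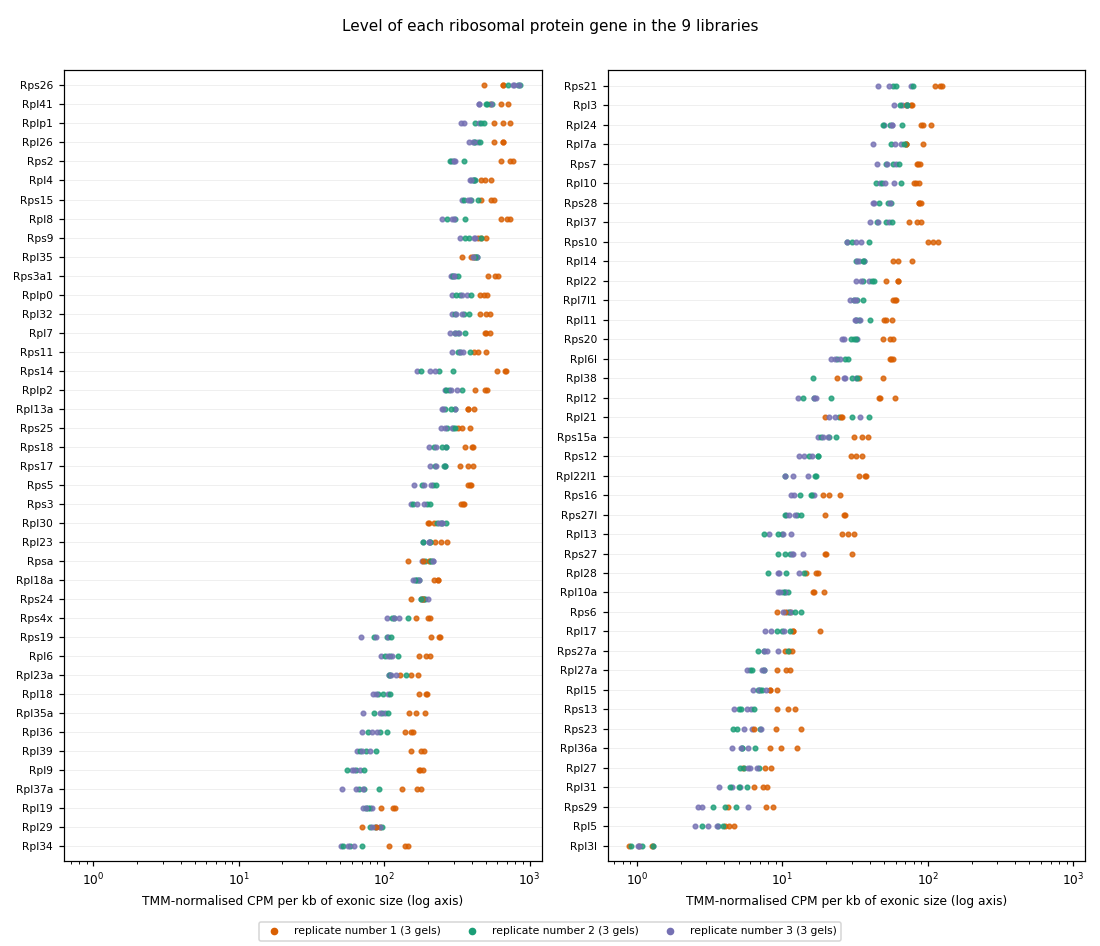
Level of 81 members in the 9 libraries (TMM-normalised CPM per kilobase of exonic size, log axis), ordered by mean level from Rps26 at 732 to Rpl3l at 1.09. Each point is 1 library, coloured by replicate number, and for 62 members all 3 number 1 points lie above the other 6.

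Together the members took about 1% of all counts. The share was 1.35%, 0.996% and 0.881% in the low libraries numbered 1, 2 and 3. It was 1.53%, 0.935% and 1.00% in the middle libraries, and 1.55%, 1.02% and 0.902% in the high libraries. In each gel the number 1 library was the highest, and the gels overlapped. The 95% Wilson intervals extended at most 0.0066 percentage points either side and cover counting error only.

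By gel, the share was 1.07% ± 0.243 in low, 1.16% ± 0.325 in middle and 1.16% ± 0.345 in high (SD, n = 3 each). The two-sided exact permutation test gave p = 0.6 for high against low, 0.6 for middle against low and 1.0 for high against middle, which became 0.9, 0.9 and 1.0 after Benjamini-Hochberg adjustment. With 3 libraries against 3, this test cannot give less than 0.1. By replicate number, the share was 1.48% ± 0.112 in number 1, 0.985% ± 0.0453 in number 2 and 0.929% ± 0.0656 in number 3 (SD, n = 3 each). Within a number, high exceeded low by 0.204, 0.0277 and 0.0209 percentage points in numbers 1, 2 and 3. Middle minus low was 0.181, -0.0609 and 0.123 points, which did not keep 1 sign.

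The small subunit held 0.778 to 0.843 counts for each count of the large subunit. This ratio was at least 0.823 in the number 1 libraries and at most 0.814 in the others. Named pseudogene rows, which the selection leaves out, had 0.957 to 1.93 counts per 1000 member counts.

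**Figure D3:**
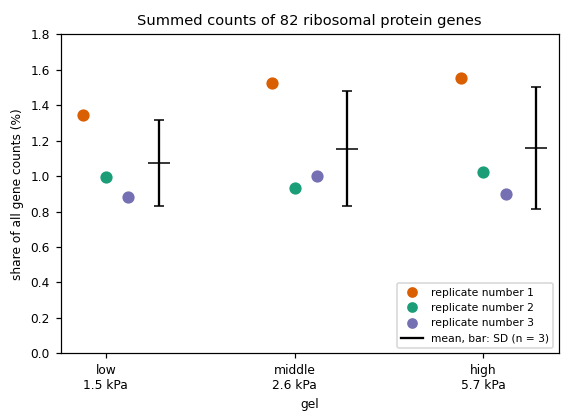
Share of all gene counts that fell on the 82 members (percent), by gel, with 1 point per library coloured by replicate number and the mean with its SD (n = 3) in black. The number 1 libraries are at 1.35% to 1.55% and the other 6 at 0.881% to 1.02% in every gel.

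The difference between replicate number 1 and numbers 2 and 3 was tested across all genes in a fit with gel and number as factors. In number 1, 70 of 82 members were higher and 4 lower with an edgeR quasi-likelihood adjusted p under 0.05. Over all genes tested, 65.4% were called in this contrast, 32.9% higher and 32.5% lower, so number 1 differed throughout the transcriptome and the members leaned to the higher side. Their median log2 difference was 0.67 (1.59-fold), against 0.005 for all genes. By class, 27 of 31 small subunit genes were higher and 2 lower (median log2 difference 0.81), 39 of 46 large subunit genes were higher and 2 lower (0.63), and 4 of 5 paralogs were higher (1.05). This contrast was chosen with the separation of number 1 already known, and the preparation, cell makeup and sequencing that the number 1 libraries may share cannot be told apart. Its p-values do not measure how much replicate numbers or preparations vary. The number 1 libraries also had the 3 lowest totals, 13172879, 13214759 and 14093074 counts.

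Rps10, which is ubiquitinated when ribosomes collide, had 59.2, 68.7 and 64.3 CPM in the low, middle and high libraries of number 1. In numbers 2 and 3 it had 16.4 and 16.4 CPM in low, 17.7 and 20.5 in middle, and 23.1 and 19.0 in high. Every number 1 library was thus above every other, by 1.77 ± 0.09 on the log2 scale (SE, edgeR adjusted p = 5.96e-08). Rps10 shares 89.5% of its windows with other genes.

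Rpl9, a large subunit protein, had 128, 127 and 134 CPM in number 1 and 40.3 to 53.1 CPM in the other 6 libraries. Its log2 difference was 1.48 ± 0.08 (edgeR adjusted p = 7.74e-08). Rps2, which sits at the mRNA channel, had 633, 737 and 768 CPM in number 1 and 285 to 352 CPM in the others, a difference of 1.22 ± 0.07 (edgeR adjusted p = 1.56e-07). These genes and Rps10 were among the members with the smallest adjusted p.

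Next in that order came Rpl37a, Rpl8, Rpl6l and Rps3a1. Rpl37a, a zinc-finger protein of the large subunit, had 78.2, 99.2 and 105 CPM in number 1 and 30.02 to 54.4 CPM elsewhere (log2 difference 1.21 ± 0.08). Rpl8, a core protein of the large subunit, had 549, 628 and 608 CPM in number 1 and 215 to 309 CPM elsewhere (1.22 ± 0.09). Rpl6l, an Rpl6-like gene, had 52.6, 54.2 and 52.3 CPM in number 1 and 20.3 to 26.8 CPM elsewhere (1.19 ± 0.09). Rps3a1 had 491, 548 and 569 CPM in number 1 and 271 to 301 CPM elsewhere (0.91 ± 0.07). In none of these genes did a number 1 library overlap the rest.

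Further large differences were those of Rpl12 (log2 1.65 ± 0.14), Rpl13 (1.60 ± 0.13), Rps14 (1.59 ± 0.13) and Rps19 (1.29 ± 0.12). Rps14 and Rps19 are genes whose reduced dosage is known to impair red cell production. Rps19 had 190.0, 215 and 218 CPM in number 1 and 62.5 to 101 CPM elsewhere. In all, 17 members were called at more than 2-fold higher. The share of all genes beyond that cut was not counted. The upper quartile of the log2 difference was 0.96 over the members and 0.456 over all genes tested.

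The paralogs mostly moved with the standard genes. Rps27l, a p53 target in other settings, had 53.8, 73.1 and 74.2 CPM in number 1 and 28.6 to 36.9 CPM in the others (log2 difference 1.05 ± 0.11). Its standard partner Rps27 had 6.86, 10.5 and 6.75 CPM in number 1 and 3.25 to 4.78 CPM in the others (1.02 ± 0.18). Both were higher in every number 1 library than in the other 6, and per kilobase their levels were 15.9 and 15.4 CPM. Rps27 shared 98.4% of its windows with other genes and Rps27l 0%. The divisor was the deposited exonic size, not the 345 and 499 bases of the principal transcripts of Rps27 and Rps27l. How these 2 levels compare is therefore uncertain.

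Rpl22l1 had 18.4, 16.6 and 18.0 CPM in number 1 and 5.12 to 8.37 CPM in the others, a log2 difference of 1.41 ± 0.17. Rpl22, whose loss is known to raise Rpl22l1, had 121, 147 and 146 CPM in number 1 and 75.5 to 99.7 CPM in the others (0.64 ± 0.09). Both were higher in every number 1 library, and the difference between these 2 values was not tested. Rpl7l1, a ribosome assembly factor, was higher by 0.88 ± 0.07, and Rpl3l, at 1.63 to 2.38 CPM in all libraries, differed by -0.06 ± 0.24 and did not pass.

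The stalk proteins Rplp0, Rplp1 and Rplp2 were higher in number 1 by 0.51 ± 0.09, 0.64 ± 0.10 and 0.70 ± 0.08 on the log2 scale. The 5S partners Rpl5 and Rpl11 were higher by 0.43 ± 0.16 and 0.64 ± 0.08. Both bind Mdm2 when ribosome assembly is disturbed. Rpl10, the last large subunit protein to join, was higher by 0.69 ± 0.08, and Rpl13a, released from the subunit in interferon-treated monocytes, by 0.49 ± 0.09. Rpl39 at the exit tunnel was higher by 1.21 ± 0.09 and Rpl41 by 0.32 ± 0.10. Among small subunit genes, Rps3 was higher by 0.96 ± 0.09, the X-linked Rps4x by 0.66 ± 0.08, and Rps27a, made as a ubiquitin fusion, by 0.41 ± 0.16. All of these passed with an edgeR adjusted p under 0.05. The call of Rps27a was kept in 6 of 17 alternative fits (adjusted p 0.018 to 0.13), that of Rpl5 in 9 (0.014 to 0.242) and that of Rpl41 in 14 (0.00135 to 0.126).

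Members went the other way in 4 cases. Rps26, which contacts the mRNA at the exit side, had 219, 296 and 292 CPM in number 1 and 317 to 384 CPM in the others, a log2 difference of -0.42 ± 0.10 (edgeR adjusted p = 0.00289). It is the member with the highest level per kilobase, and no number 1 library reached the lowest of the others. Rpl30 had 125, 127 and 139 CPM in number 1 and 146 to 168 CPM in the others, also without overlap (-0.25 ± 0.08, edgeR adjusted p = 0.0121).

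Rpl21 had 36.5, 47.4 and 47.1 CPM in number 1 and 38.9 to 73.0 CPM in the others, with overlap (-0.26 ± 0.11, edgeR adjusted p = 0.0474). Rpsa, the laminin receptor precursor that became a small subunit protein, had 271, 344 and 377 CPM in number 1 and 341 to 406 CPM in the others. Its groups also overlapped, and the difference was -0.21 ± 0.08 (edgeR adjusted p = 0.0289).

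The members that did not pass were 8: Rps6, Rpl35, Rps24, Rpl29, Rpl3l, Rpl3, Rpl27 and Rpl38. Rps6, the substrate of the S6 kinases, had 15.8, 12.7 and 14.6 CPM in number 1 and 14.1 to 18.6 CPM in the others (log2 difference -0.16 ± 0.11, edgeR adjusted p = 0.228). Rpl35 had 156, 180 and 186 CPM against 183 to 197 CPM, and Rps24 had 301, 365 and 355 CPM against 352 to 395 CPM. The groups overlapped in each.

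Over the members, 63 were higher in every number 1 library than in all 6 others and 2 were lower in every one, against 27.7% and 26.5% of all genes tested. Of the 74 called members, 60 were called in each of 17 alternative fits that changed the scaling, the filter or the tool or left out a library or a gel. Those 60 were 59 higher and 1 lower, Rps26. The share of all called genes kept in every fit is not given here, so this is not a trait particular to the members. The other 14 lost the call in at least 1 fit: Rpl4, Rpl5, Rpl7a, Rpl15, Rpl21, Rpl30, Rpl31, Rpl36a, Rpl41, Rps9, Rps23, Rps27a, Rps29 and Rpsa. Of these, Rpl15, Rpl21 and Rps27a were called in 6 of 17. The members' median log2 difference was 0.68 in low, 0.68 in middle and 0.72 in high, computed within each gel.

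**Figure D4:**
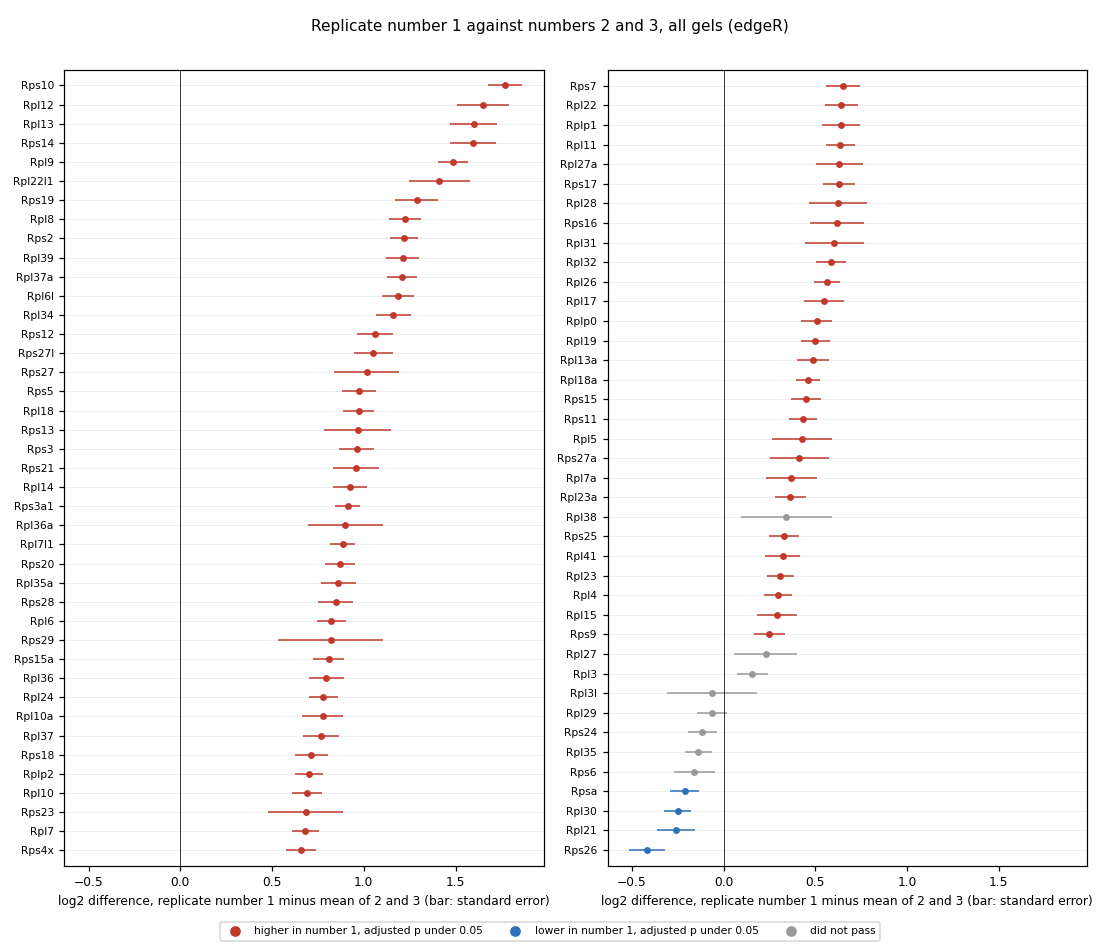
Log2 difference of 81 members between replicate number 1 and the mean of numbers 2 and 3 over the 3 gels, with its standard error. Red points (69) were higher and blue points (4) lower with an edgeR adjusted p under 0.05, from 1.77 for Rps10 to -0.42 for Rps26, and 8 grey points did not pass.

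Numbers 2 and 3 were close to each other. For number 3 against 2, edgeR called 0 of 82 members, as it did 0.0% of all genes, and 3 members had an unadjusted p under 0.05, all lower (1.24% of all genes). DESeq2 also called 0 (0.0%). The members' median log2 difference was -0.10 and kept its sign in the alternatives, at -0.032 without low replicate 2, -0.033 without high replicate 3, -0.063 without low replicate 3, -0.061 without high replicate 2, -0.176 without middle replicate 2 and -0.184 without middle replicate 3. It was -0.023, -0.205 and -0.039 without the low, middle and high gel.

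To ask which members moved apart from the rest, the fit was repeated with libraries scaled to equal summed member counts. On that scale 26 members were higher and 17 lower in number 1 (7.95% and 63.6% of all genes, whose median moved to -0.60). Rps10 was 1.17 ± 0.10 above the summed members on the log2 scale, and Rps26 was 1.02 below them, at -1.02 ± 0.12. Members that did not pass on the usual scale, Rpl35 (-0.74 ± 0.10), Rps24 (-0.72 ± 0.12), Rps6 (-0.76 ± 0.12) and Rpl3 (-0.44 ± 0.10), were among those lower on this one. This scale lowers every gene's number 1 difference by a similar amount, so members near 0 before turn lower by construction. The members' median was 0.067 on this scale and -0.016 with the median of ratios over the members as scale. Between gels, edgeR on this scale called 0 members for high or middle against low and for high against middle (14.9%, 1.6% and 0.0165% of all genes), and 3, 1 and 2 members had an unadjusted p under 0.05 (28.9%, 13.5% and 8.52% of all genes).

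The number 1 difference of the members was set beside their sequence features. It had a Spearman rho of -0.01 with the share of shared windows (81 members) and -0.17 with log2 exonic size (82 members), and -0.28 with log2 exonic size over the 12094 genes tested. Members with a pyrimidine run at the start had a median number 1 difference of 0.71 (33 genes) and those without one had 0.65 (28 genes). With and without CCGGAAG the medians were 0.63 (24 genes) and 0.78 (37 genes), with and without AANATGGC 0.85 (12) and 0.64 (49), and with and without GGGCGG 0.78 (37) and 0.63 (24). The widest gap was that of TATAAA, 1.06 in the 6 genes with it and 0.66 in the 55 without. These are descriptions over genes measured in the same libraries.

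The study's own question was how gel stiffness changes the cells' transcripts. Without a term for the replicate number, edgeR called 0 of 82 members in each pair of gels. Over all genes it called 0.091% for high against low, 0.0% for middle against low and 0.0% for high against middle. At an unadjusted p under 0.05 there were 0, 1 and 0 members (7.72%, 2.63% and 1.48% of all genes), and DESeq2 called 0 in each pair (2.75%, 0.397% and 0.0165%). The members' median log2 differences were 0.15, 0.10 and 0.06, against 0.004, 0.011 and -0.005 for all genes. Single libraries turned these signs: the medians ran from -0.117 (without high replicate 1) to 0.416 (without low replicate 1), from -0.175 (without middle replicate 1) to 0.344 (without low replicate 1), and from -0.235 (without high replicate 1) to 0.33 (without middle replicate 1). The first 2 comparisons share the low libraries.

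Libraries of the same number deviated together, so the number was also fitted as a block, although libraries numbered 2 and 3 also deviated together. With the block the medians were 0.139, 0.093 and 0.067, and over the alternatives they were 0.091 to 0.227, 0.003 to 0.206 and -0.01 to 0.162. The fit with the block called 4 members in high against low, all higher (15.5% of all genes in either direction, 6.72% higher). It called 1 in middle against low, higher (1.84%, 0.81% higher), and 0 in high against middle (0.0165%). The members' share of 4.88% for high against low lay under the background of 6.72%. At an unadjusted p under 0.05 there were 16 members for high against low, 15 higher and 1 lower, 5 for middle against low and 3 for high against middle (30.8%, 14.6% and 10.5% of all genes). DESeq2 with the block called 3, 1 and 0 (15.7%, 3.85% and 0.827%).

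Rpl37a rose with the block from low to high, with 78.2, 39.4 and 30.02 CPM in low, 99.2, 42.7 and 42.1 in middle, and 105, 54.4 and 37.6 in high. High was above low within each number, although the gels overlapped across numbers. The log2 difference was 0.41 ± 0.10 (edgeR with the block, adjusted p = 0.0187). It was called in 13 of 17 alternative fits with the block, with adjusted p from 0.00788 to 0.125.

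Rpl17, a protein at the exit tunnel, had 15.8, 12.2 and 10.1 CPM in low, 15.8, 13.4 and 11.2 in middle, and 24.1, 15.2 and 13.7 in high. Its difference between high and low was 0.46 ± 0.13 (edgeR with the block, adjusted p = 0.0333), and 5 of 17 alternatives called it (adjusted p 0.0332 to 0.199). Rpl10 had 64.3, 35.2 and 37.3 CPM in low, 65.6, 38.8 and 40.3 in middle, and 69.6, 51.7 and 46.4 in high. It rose by 0.33 ± 0.10 (edgeR with the block, adjusted p = 0.0401), in 8 of 17 alternatives (0.00425 to 0.309). Each of these was higher in high than in low in all 3 numbers, while the gels overlapped.

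Rpsa had 271, 357 and 341 CPM in low, 344, 387 and 404 in middle, and 377, 390.0 and 406 in high. All 3 high libraries were above all 3 low libraries, as in 1 other member, Rpl27, and in 5.9% of all genes. The difference was 0.28 ± 0.09 (edgeR with the block, adjusted p = 0.0499), and 3 of 17 alternatives called it (0.0391 to 0.275). Rpsa was also 1 of the 4 members lower in number 1, so it was higher in the high gel and lower in number 1.

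In middle against low, Rpl21 rose with the block by 0.55 ± 0.12 (edgeR, adjusted p = 0.0438; 8 of 17 alternatives, 0.00125 to 0.377). Its level was 36.5, 45.7 and 42.4 CPM in low, 47.4, 73.0 and 63.3 in middle, and 47.1, 55.9 and 38.9 in high. The low and middle libraries did not overlap, as in 2 other members, Rpl29 and Rps29 (3.56% of all genes), and the high libraries overlapped both. An F test of any difference among gels with the block called Rpl21 (edgeR adjusted p = 0.0325) and Rpl37a (0.0491), against 9.0% of all genes. Rps23, at 2.54 to 7.46 CPM the member with the lowest high-to-low value, was at -0.61 ± 0.24 and did not pass (edgeR with the block, adjusted p = 0.113).

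With the number 1 libraries left out, edgeR without the block called 3 members in high against low, 3.66% of the members against 26.3% of all genes: Rpl10 (log2 0.44 ± 0.09, adjusted p = 0.00367), Rplp2 (0.29 ± 0.08, 0.0136) and Rps9 (0.30 ± 0.09, 0.0272). In middle against low it called Rpl21 (0.63 ± 0.14, 0.0192), against 6.42% of all genes. In high against middle it called the same gene, which fell by 0.52 (edgeR adjusted p = 0.0454), against 6.88%. Rpl10 and Rpl21 were thus called with the block in all libraries and also without it in numbers 2 and 3 alone. With the block kept and number 1 left out, high against low called Rpl10, Rplp2 and Rps9 in the same libraries. It also called Rpl37a (log2 0.40 ± 0.12, edgeR adjusted p = 0.0186), but not Rpl17 or Rpsa. The share of all genes called in that fit is not given here.

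Direction within the numbers was more shared than the calls. In 46 of 82 members high was above low in all 3 numbers (23.7% of all genes), and in 2 members, Rps6 and Rps23, it was below in all 3 (24.8%). The median high minus low difference of the members was 0.22 in number 1, 0.12 in number 2 and 0.10 in number 3 on the log2 scale, with 71, 57 and 66 members above 0. Middle minus low was 0.16, -0.13 and 0.25, and high minus middle was 0.06, 0.28 and -0.13, so the middle gel changed sides with the number. For these pairs 14 and 9 members were higher in all 3 numbers, against 17.7% and 16.4% of all genes. Members share their libraries, so 1 library can move many of them at once.

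**Figure D5:**
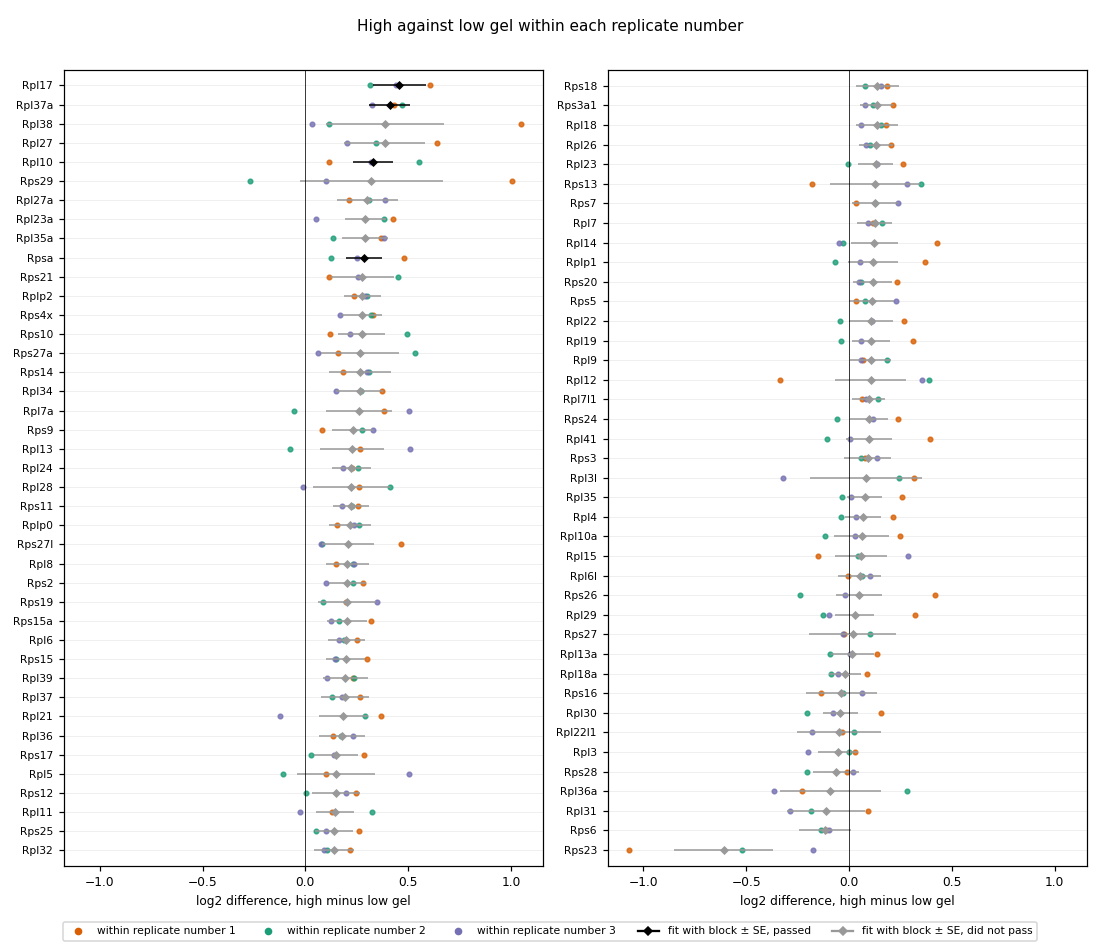
Log2 difference of 81 members between high and low gels. Coloured points are the differences within replicate numbers 1, 2 and 3, and diamonds with bars are the edgeR fit with the replicate block and its standard error. The 4 black diamonds passed (Rpl17, Rpl37a, Rpl10 and Rpsa, 0.28 to 0.46), and most values lie right of 0, with a median of 0.14.

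Genes that serve the ribosome were read from lists in the same fits. Over all genes tested, 32.9% were called higher and 32.5% lower in number 1. In number 1, 48 of 58 ribosome assembly genes were higher and 1 lower (median log2 difference 0.56), among them Gnl3, a nucleolar GTPase, at 1.22 ± 0.06 and Rrp9 at 1.49 ± 0.08. Of 11 genes of RNA polymerase I, which transcribes ribosomal RNA, 7 were higher and 3 lower (0.55), with Polr1d at 0.96 ± 0.09. Of 78 mitochondrial ribosomal protein genes, which build a separate ribosome, 54 were higher and 1 lower (0.56), with Mrpl45 at 1.28 ± 0.08. These lists had medians near that of the cytosolic members, and all genes had 0.005.

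Translation factor lists had somewhat lower medians. Of 36 initiation genes, 23 were higher and 2 lower in number 1 (median 0.41). Eif1, which guards start codon choice, was at 1.49 ± 0.08, and Eif6, which keeps free large subunits apart, was at 1.55 ± 0.10. Of 10 elongation genes 6 were higher and 1 lower (0.36), with Eef1d at 0.89 ± 0.08. Of 8 further ribosome partners, such as Rack1 (0.64 ± 0.09) and Naca (0.65 ± 0.08), 5 were higher and 0 lower (0.34).

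The regulators split. Of 37 genes of mTORC1 and of the control of pyrimidine-tract mRNAs, 16 were higher and 15 lower in number 1 (median 0.14). Rheb, the GTPase that activates mTORC1, was at 0.95 ± 0.09 and Rragd, a GTPase of the lysosomal amino acid sensor, at 1.01 ± 0.09. Of 17 genes of ribosome quality control and the p53 arm, 11 were higher and 1 lower (0.29). In that list, Mdm2, which Rpl5 and Rpl11 bind, had a mean of 1799 CPM in number 1 and 563 CPM in the others (1.66 ± 0.11).

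Between gels, edgeR without the block called 0 of the 255 genes on these lists in each pair. For high against low 8 had an unadjusted p under 0.05 and DESeq2 called 1, for middle against low 2 and 0, and for high against middle 0 and 0. The unadjusted share over all genes was 7.72%, 2.63% and 1.48%. With the block, which called 6.72% of all genes higher and 15.5% in either direction, high against low called 7 of 58 assembly genes, all higher, including Rrp9 (0.43 ± 0.10) and Rrs1 (0.44 ± 0.10). It called 5 of 36 initiation genes, all higher, including Eif1 (0.55 ± 0.10) and Eif4g2 (0.57 ± 0.11), and 5 of 78 mitochondrial ribosomal genes, all higher, including Mrpl52 (0.78 ± 0.15). It called 3 mTORC1 genes higher and 5 lower, with Rragd at -0.82 ± 0.11 and Mxd1, a Myc antagonist, at -0.84 ± 0.13. Elongation had 1 higher and 1 lower, and quality control 1 higher and 2 lower. For middle against low and high against middle edgeR called 0 of the 255 genes even so, where 24 and 12 had an unadjusted p under 0.05 and DESeq2 called 2 and 0. Over all genes 14.6% and 10.5% had such a p.

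Markers of cell types moved with the replicate number beside the members. Over all genes tested, 32.9% were called higher and 32.5% lower in number 1. In number 1, 11 of 12 neutrophil markers were lower and 0 higher in the edgeR fit (median log2 difference -2.10), for example Mmp9 at -2.28 ± 0.10 and Csf3r at -2.25 ± 0.12. Progenitor markers were lower in 7 of 8 (-2.60), B cell markers in 8 of 8 tested (-2.18), megakaryocyte markers in 7 of 7 (-2.10) and genes of dividing cells in 7 of 8 (-1.79). Of 12 macrophage markers, 3 were higher and 6 lower (-0.51), with Cd63 at 1.82 ± 0.10 and Csf1r at -0.90 ± 0.09. T and NK cell markers were lower in 5 of 5 tested, eosinophil, basophil and mast cell markers in 4 of 9 and stromal markers in 2 of 7, and dendritic markers were higher in 2 and lower in 3 of 7. Erythroid markers were higher in 2 and lower in 1 of 7 tested, with a median log2 difference of 0.84. They summed to 459 to 811 CPM in number 1 and 236 to 557 CPM in the others.

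Across gels the summed neutrophil markers were 3602 to 24854 CPM in low, 4906 to 22327 in middle and 5006 to 17469 in high, and the gels overlapped. With the block, 1 neutrophil marker was higher in high than in low, Lcn2 at 1.32 ± 0.16, and 3 were lower, such as Cxcr2 at -0.60 ± 0.15. Of 12 macrophage markers, 2 were higher and 5 lower (median log2 difference -0.42). Progenitor and B cell markers were lower in 3 of 8 each (-1.12 and -0.81), megakaryocyte markers in 3 of 7 (-1.05), eosinophil, basophil and mast cell markers in 3 of 9 (-1.02), genes of dividing cells in 4 of 8 (-0.58), stromal markers in 2 of 7 (-0.34) and dendritic markers in 1 of 7 (-0.72), all in the edgeR fit with the block. T and NK cell and erythroid markers had medians of -1.02 and -0.44 there. That fit called 813 of the 12094 genes tested higher and 1056 lower in high against low. The part of these marker shifts in the members' differences was not tested.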

How the data were processed

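RNA was measured in 9 stranded poly(A) libraries, 3 per gel. The authors deposited raw counts per gene, 1 table per library, and FPKM values, which equalled FPKM recomputed from the counts and the deposited exonic sizes within 0.005. Per the submitters' processing notes, the build was GRCm39 and HTSeq 0.6.1, HISAT2 2.0.1, cutadapt 1.9.1 and DESeq2 were used. Settings were not given in the sources used here. The tables hold no coordinates, so those printed belong to the RefSeq windows.

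Counts were fitted with edgeR 4.0.16 in R 4.3.3 (filterByExpr, TMM, robust quasi-likelihood, two-sided) over all 9 libraries, with Benjamini-Hochberg adjustment over the 12094 genes tested and a threshold of 0.05. The main gel comparison had no term for the replicate number. A second fit had the number as a block, because 9 same-number pairs from different gels had correlations of 0.595 to 0.856 after removal of gel means (0.596 to 0.914 over the members). Pairs of numbers 2 and 3 from different gels had 0.552 to 0.698, which overlaps the 0.595 to 0.673 of pairs within number 2 or within number 3, so the correlations show the split of number 1 and do not separate 2 from 3. The labels do not state a pairing. The biological coefficient of variation was 0.337 without and 0.115 with the block. CPM are TMM-normalised, and differences within a number used a pseudocount of 0.01 CPM. The fitting code was run on simulated counts with a spread under 0.337 and no effect of the replicate number. That run therefore does not show how the gel comparison without the block performs on these libraries. DESeq2 1.42.0 was an alternative, and the plots used Python 3.11.15 with matplotlib 3.10.9.

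The members and lists were chosen with earlier results of these data known. Named members are all those called where there were 8 or fewer, otherwise the 8 with the smallest adjusted p, those of structural interest, and the 3 highest, lowest, most and least variable. Genes of other lists are the called ones with the smallest adjusted p. Rpl4, Rpl7a, Rpl13, Rpl15, Rpl31, Rpl36a, Rps14, Rps23, Rps9, Rpl27, Rpl29 and Rpl38 were named after their values were seen. The values of 1 member are not reported here, and the row plots leave it out, while counts and medians over the members include it.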

Additional observations from a re-analysis of the deposited data

How the results depend on the processing

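The numbers of members called between gels depended on how the replicate number was treated. Without the block, the replicate block changed the count from 0 to 4 (high against low) and from 0 to 1 (middle against low), and leaving out replicate 1 in every gel gave 3, 1 and, for high against middle, 1 (26.3%, 6.42% and 6.88% of all genes). With the block, high against low called 1 member with library totals alone, and 0 to 4 when 1 library or 1 replicate number was left out: 0 without low replicate 3, without high replicate 2, without replicate 2 and without replicate 3, 1 without middle replicate 3, and 2 without low replicate 1, low replicate 2 or high replicate 3. Middle against low called 0 with a minimum of 50 counts in 3 libraries, and 0 to 1 when libraries were left out. High against middle, with the block, called 0 to 1. The shares of all genes called in these alternatives with the block are not given here. The cause was not tested. The block also moved DESeq2 from 0 to 3 (high against low) and from 0 to 1 (middle against low), the F test among gels from 0 to 2, and the pathway lists from 0 to 30 of 255 genes (high against low). For number 1 against 2 and 3 the count was 71 to 73 under other scalings, filters and DESeq2, 66 to 71 without 1 library and 63 to 68 without 1 gel. The main fit called 65.4% of all genes in this contrast, and the shares in its alternatives are not given here. The difference in share of counts between high and low, 0.0841 percentage points, was -0.1121 to 0.2206 without 1 library, settings that leave the gels unbalanced for the number, and it was above 0 within each number. The alternatives with the block in which a library was left out, the scaling was changed or DESeq2 was used were chosen after seeing the data. Members with few counts, such as Rps29 with 17 to 47 per library, carry the widest errors.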
